A study of Mus musculus with 12 samples.

Results

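The 33 genes described here encode the enzymes that build cholesterol and fatty acids and the proteins that sense sterols and set their expression. They were chosen by symbol, from a list of genes of these pathways, and all 33 were found among the 46983 genes of the expression table and passed the filter on low values that left 18023 genes for testing. The cells were C2C12, an immortalised line of mouse myoblasts that stops dividing and fuses into myotubes in culture. WT cells were the wild type control named after PB-IP, a PiggyBac transposon vector, and PPARγ/+ cells carried that vector with the coding sequence of PPARγ, the nuclear receptor that directs fat cell formation. PPARγ/+ cells had been transfected and selected with puromycin into stable lines. Whether the control cells went through the same selection, and how many clones a line held, was not stated. RNA was sequenced on 0d and 5d of differentiation in 3 libraries per group and 12 in all, which the study calls biological replicates. Separate transfections were not described, and the p-values measure the spread between these libraries. The study kept the cells in DMEM with fetal bovine serum, β-mercaptoethanol and LIF, among other additions. No separate medium of differentiation was named in the sources used here.

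Cholesterol is made from acetyl-CoA through the mevalonate arm, which yields farnesyl pyrophosphate, and through the squalene and sterol arm, which joins farnesyl units to squalene, closes the ring to lanosterol and trims lanosterol to cholesterol. Fatty acids are made from the same acetyl-CoA by ATP citrate lyase, acetyl-CoA carboxylase and fatty acid synthase, and are then lengthened and desaturated. Most of these genes are targets of SREBP transcription factors. SREBPs are held in the endoplasmic reticulum by SCAP and the INSIG proteins while sterols are plentiful and are cleaved and sent to the nucleus when sterols fall. SREBP binding often takes place beside a bound NF-Y, a factor that recognises the CCAAT box. Myoblasts that fuse rebuild their membranes, and cultured muscle cells both make and take up cholesterol.

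The promoters of 26 members were present in the RefSeq promoter table of GRCm38.p6, with 34 start sites, and were searched on both strands for 4 short motifs in the window from 250 bases before to 50 bases after the start. The CCAAT box of NF-Y was present in the promoters of 21 of the 26 genes and in 41.1% of all 27025 genes of the table. The sterol regulatory element TCACNCCAC was present in 1 of the 34 windows, that of Hmgcs1, and in 1.24% of all 32851. The E-box CACGTG was found in 7 of the 34 windows and in 7.15% of all. The sequence AGGTCA, the core that nuclear receptors such as PPARγ recognise, was found in 7 of the 34 windows and in 16.3% of all. A match is a description of the letters and not a binding site. 4 promoters are shown, chosen after the values were seen: that of Hmgcs1 for its sterol regulatory element, and those of Cyp51, Tm7sf2 and Ebp for the changes described further on. Capitals mark the motif matches of either strand, so that ATTGG is a CCAAT box on the opposite strand and TGACCT is AGGTCA on the opposite strand.
Hmgcs1, chr13:119690101-119690400, plus strand: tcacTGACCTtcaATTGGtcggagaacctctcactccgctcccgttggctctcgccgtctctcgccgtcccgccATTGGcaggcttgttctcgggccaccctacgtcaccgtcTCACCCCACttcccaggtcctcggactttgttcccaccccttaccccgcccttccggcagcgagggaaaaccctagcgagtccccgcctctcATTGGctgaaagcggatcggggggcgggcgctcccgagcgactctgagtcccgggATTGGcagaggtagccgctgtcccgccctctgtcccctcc
Cyp51, chr5:4104648-4104947, minus strand: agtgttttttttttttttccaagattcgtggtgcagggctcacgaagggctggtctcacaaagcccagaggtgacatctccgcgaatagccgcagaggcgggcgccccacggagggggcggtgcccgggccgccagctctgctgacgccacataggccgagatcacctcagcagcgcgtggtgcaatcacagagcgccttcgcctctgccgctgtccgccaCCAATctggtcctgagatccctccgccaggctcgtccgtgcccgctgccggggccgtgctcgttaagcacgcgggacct
Tm7sf2, chr19:6067801-6068100, minus strand: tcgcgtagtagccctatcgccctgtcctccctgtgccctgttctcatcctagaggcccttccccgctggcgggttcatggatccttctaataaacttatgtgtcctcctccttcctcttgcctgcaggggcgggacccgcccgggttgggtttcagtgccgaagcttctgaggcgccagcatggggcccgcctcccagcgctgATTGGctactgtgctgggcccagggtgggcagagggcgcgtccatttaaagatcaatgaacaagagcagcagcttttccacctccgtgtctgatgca
Ebp, chrX:8193463-8193762, minus strand: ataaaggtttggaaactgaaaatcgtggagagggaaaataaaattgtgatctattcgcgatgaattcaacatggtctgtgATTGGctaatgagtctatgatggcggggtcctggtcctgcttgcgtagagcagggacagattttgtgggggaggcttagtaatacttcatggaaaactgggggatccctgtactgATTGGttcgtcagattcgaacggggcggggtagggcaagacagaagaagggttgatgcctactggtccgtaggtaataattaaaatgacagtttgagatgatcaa
Counted with the first base of the transcript as 1 and the base before it as −1, the sterol regulatory element of Hmgcs1 began at −137, among CCAAT boxes at −237, −176, −45 and 11 and after AGGTCA at −246. The CCAAT boxes of Ebp began at −170 and −55, that of Tm7sf2 at −47 and that of Cyp51 at −29.

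Expression was measured as FPKM, the fragments on a gene per length of its transcript and per mapped fragments of the library. Being given per length, FPKM allows a rough comparison between genes. That comparison is less certain where exons overlap those of another gene, since reads there may not be assigned. The libraries held between 15557857 and 22013275 fragments on genes. Among the members the values ran from 0.740 FPKM, or 68 fragments, for Fdps in a PPARγ/+_0d library to 385 FPKM, or 49496 fragments, for Scd2 in a WT_0d library. Pparg, the gene that was overexpressed, measured 7.56, 5.10 and 6.92 FPKM in WT_0d, 3.12, 3.53 and 4.59 in WT_5d, 44.4, 28.0 and 46.4 in PPARγ/+_0d and 40.1, 44.1 and 92.7 in PPARγ/+_5d, so that all PPARγ/+ libraries lay above all WT libraries. The summed FPKM of 7 myotube markers lay between 118 and 283 in WT_0d, 1031 and 4531 in WT_5d, 52.7 and 86.3 in PPARγ/+_0d, and 1122 and 1324 in PPARγ/+_5d. The sum of 7 markers of cycling myoblasts lay between 189 and 319 on 0d and between 38.5 and 48.4 on 5d. The sum of 9 adipocyte markers was 4.60 to 8.65 in WT libraries, 10.6 to 17.3 in PPARγ/+_0d and 44.8 to 142 in PPARγ/+_5d, where all except the leptin gene Lep were above 0. Osteoblast markers summed to at most 0.388. In these bulk samples fewer cells of a type and less RNA per cell cannot be told apart.

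Among the 3 libraries of WT_0d, replicate 3 stood apart in these genes. It was the highest of its group in 30 of the 33 members and in 18 of the 18 enzymes of the mevalonate, squalene and sterol arms, against 30.5% of all genes tested. Its values were 1.35 times the mean of the other libraries of the group in the median over the members and 1.5 times over the 18 enzymes, against 0.987 times over all genes. Smaller shifts ran through other groups as well. PPARγ/+_0d replicate 3 was the lowest of its group in 26 members, against 27.5% of all genes. PPARγ/+_5d replicate 1 was the highest in 25, against 34.6%, and PPARγ/+_5d replicate 3 the lowest in 24, against 32.5%. WT_5d replicate 3 carried the lowest sum of myotube markers of its group, 1031 FPKM against 4531 and 3523. The results that rest on WT_0d replicate 3 or WT_5d replicate 3 are given with and without these libraries, and the part of these libraries in other results was not tested.

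**Figure D1:**
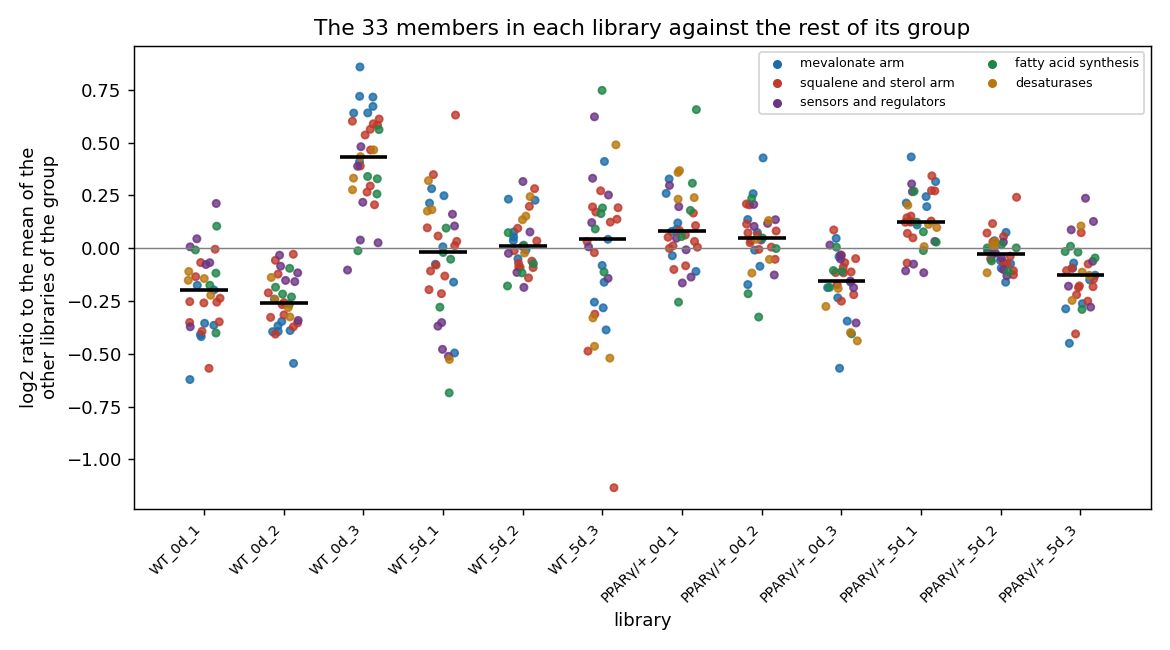
Log2 ratio of each member to the mean of the other libraries of its group (y axis) in each of the 12 libraries (x axis), with a point per gene coloured by role and a black bar for the median. In WT_0d replicate 3 the points centre on 0.43, while the medians of the other libraries lie between −0.26 and 0.12.

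Changes from 0d to 5d were tested with limma within each cell type. Genes were called where the unadjusted p-value did not exceed 0.05 and the change reached 2-fold. Most members moved by less, and the words rose and fell are used here where the adjusted p-value (limma, Benjamini-Hochberg over all genes tested) did not exceed 0.05, whatever the size. In WT cells 1 member, Tm7sf2, was called at 2-fold, where 16.5% of all genes were called. At the adjusted p-value 7 members rose and 3 fell, where 14.1% of all genes rose and 23.0% fell. The median log2 change of the members was 0.08 and that of all genes −0.08, with 19 members above 0. The libraries of 5d lay entirely above those of 0d in 7 members and entirely under them in 6, where this held for 20.2% and 30.9% of all genes. In PPARγ/+ cells 1 member, Scd1, was called at 2-fold, where 15.2% of all genes were called. At the adjusted p-value 12 members rose and 2 fell, where 18.8% of all genes rose and 28.8% fell. The median was 0.22 and that of all genes −0.10, with 21 members above 0. The libraries of 5d lay entirely above in 15 members and entirely under in 4, where this held for 23.8% and 34.4% of all genes. Scaling by median ratios moved the median of all genes from −0.08 to 0.02 in WT and from −0.10 to 0.02 in PPARγ/+ cells. With it 8 members rose and 1 fell in WT, where 18.1% of all genes rose and 17.9% fell, and 16 rose and 2 fell in PPARγ/+ cells, where 23.4% rose and 21.4% fell.

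Single libraries moved these counts, and leaving out a library also leaves fewer samples. In WT cells the rises of Cyp51, Tm7sf2 and Ebp and the fall of Stard4 passed in all 14 alternatives. None of the other 6 changes passed without WT_0d replicate 1, without WT_5d replicate 1 or without WT_5d replicate 2, where 4, 5 and 4 members passed and the share of all genes that rose or fell was 10.2% or 17.3%, 12.9% or 19.6%, and 8.74% or 16.5%. Without WT_0d replicate 2 those of Fdft1, Nsdhl, Insig2 and Scd1 did not pass, and 6 members did, where 10.3% of all genes rose and 18.5% fell. Without WT_0d replicate 3 those of Insig2, Acly and Elovl5 did not pass, while Hmgcs1, Mvd, Idi1, Fdps and Msmo1 did, which made 11 risen and 1 fallen with a median of 0.25, where 9.01% of all genes rose and 16.5% fell with a median of −0.09. Without WT_5d replicate 3 those of Fdft1 and Insig2 did not pass, while Mvd, Hsd17b7, Dhcr7 and Elovl6 did, which made 8 risen and 4 fallen with a median of 0.17, where 14.1% of all genes rose and 23.8% fell with a median of −0.12. The highest adjusted p-value without a library was 0.126 for Fdft1 and Insig2, 0.0957 for Acly, 0.0884 for Nsdhl, 0.0878 for Elovl5 and 0.0752 for Scd1. In PPARγ/+ cells 10 of the 14 changes passed in all 14 alternatives. That of Msmo1 did not pass without PPARγ/+_0d replicate 1 or 3 or PPARγ/+_5d replicate 1 or 2 (adjusted p up to 0.0795), and that of Fads1 without PPARγ/+_0d replicate 2 or 3 or PPARγ/+_5d replicate 1 or 2 (adjusted p up to 0.0707). That of Insig2 did not pass without PPARγ/+_0d replicate 3 or PPARγ/+_5d replicate 2 or 3 (adjusted p up to 0.0688). In a fit of all 12 libraries Dhcr7 (adjusted p = 0.233), Fads1 (adjusted p = 0.117) and Msmo1 (adjusted p = 0.0951) did not pass, and without a filter on low values Msmo1 (adjusted p = 0.0584) and Fads1 (adjusted p = 0.0543) did not.

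**Figure D2:**
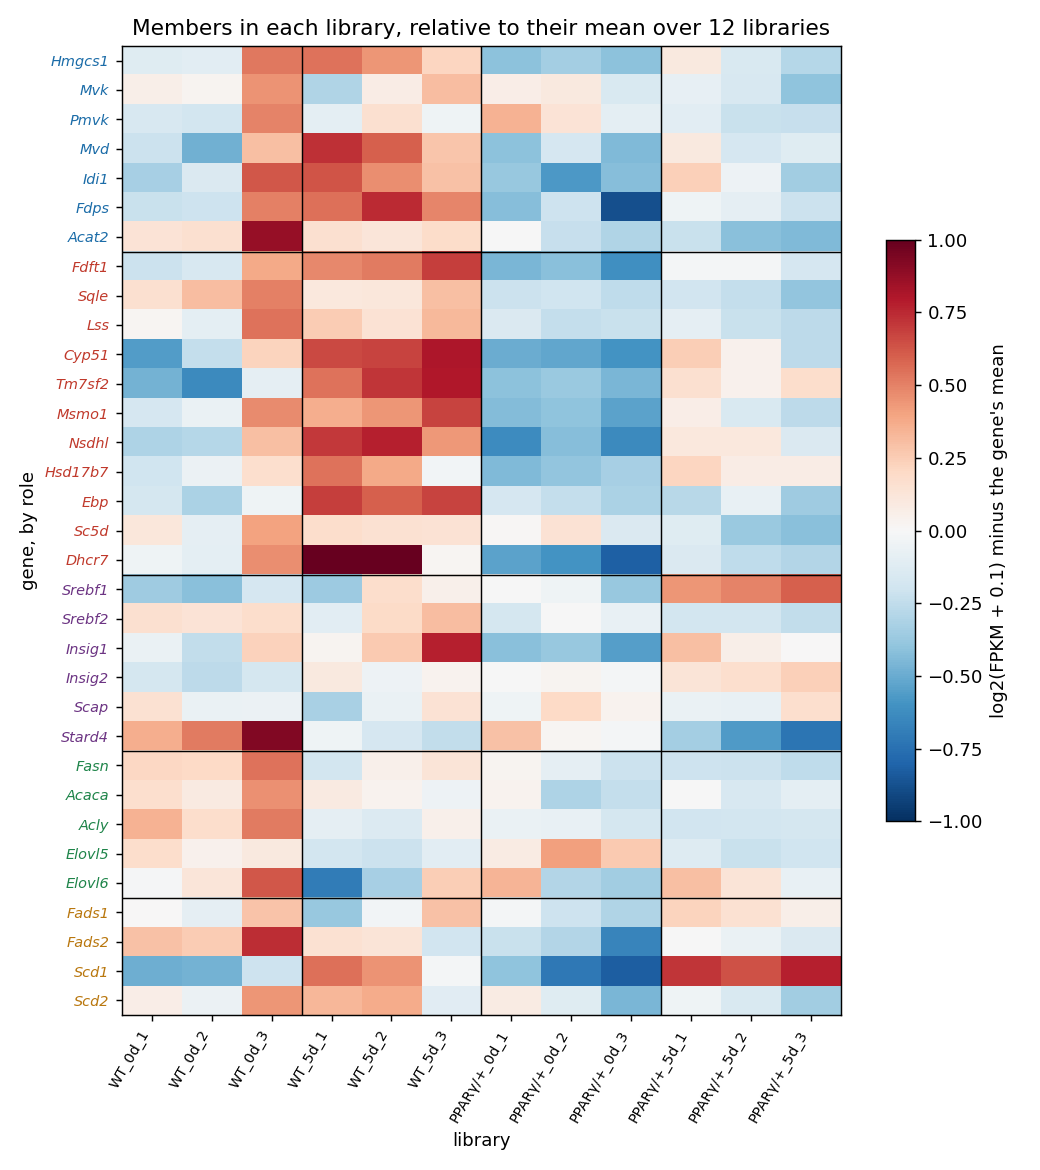
Each of the 33 members (rows, grouped and coloured by role) in each of the 12 libraries (columns), as log2(FPKM + 0.1) minus the mean of the gene over the libraries, with colours that saturate at −1 and 1. Most of the sterol arm is red in WT_5d and blue in PPARγ/+_0d, Scd1 and Srebf1 are red in PPARγ/+_5d, and the column of WT_0d replicate 3 is redder than its neighbours.

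The squalene and sterol arm held most of the members that rose. Of its 11 enzymes 5 rose in WT cells, where 14.1% of all genes rose, and 7 in PPARγ/+ cells, where 18.8% did. None fell in either, where 23.0% and 28.8% of all genes fell. The median log2 changes were 0.56 and 0.42. The enzymes that rose in both cell types were Fdft1, Cyp51, Tm7sf2 and Nsdhl. In WT the rises of Fdft1 and Nsdhl each did not pass in 6 of 14 alternatives. Sqle, the epoxidase of squalene, and Lss, the cyclase that forms lanosterol, act between Fdft1 and Cyp51, and neither passed the test. Their changes were −0.15 and 0.08 in WT and −0.05 and 0.01 in PPARγ/+ cells. Lss measured 5.02, 4.61 and 7.26 FPKM in WT_0d, 5.90, 5.48 and 6.21 in WT_5d, 4.45, 4.17 and 4.21 in PPARγ/+_0d and 4.64, 4.22 and 4.11 in PPARγ/+_5d, with overlap between the days in both cell types.

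Tm7sf2, a sterol C14 reductase at chr19:6062821-6068373 in GRCm38, measured 2.06, 1.82 and 2.72 FPKM in WT_0d and 4.26, 4.80 and 5.12 in WT_5d. It measured 2.15, 2.21 and 2.08 in PPARγ/+_0d and 3.25, 2.99 and 3.29 in PPARγ/+_5d. The libraries of 5d lay above those of 0d in both cell types, and those of WT_5d above those of PPARγ/+_5d. It rose by 1.09 (SE 0.17) on the log2 scale in WT (adjusted p = 0.00413) and by 0.54 (SE 0.09) in PPARγ/+ cells (adjusted p = 0.00251). Its exons share 532 bases with those of Vps51 on the same strand, whose log2 changes were −0.06 and −0.08.

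Cyp51, the lanosterol demethylase at chr5:4081145-4104746, measured 18.8, 23.5 and 32.4 FPKM in WT_0d and 43.9, 44.3 and 48.5 in WT_5d, without overlap. In PPARγ/+ cells it measured 19.6, 19.3 and 18.3 on 0d and 32.8, 28.5 and 23.1 on 5d, again without overlap. It rose by 0.90 (SE 0.19) in WT (adjusted p = 0.0123) and by 0.54 (SE 0.12) in PPARγ/+ cells (adjusted p = 0.0104). Without WT_0d replicate 3, the highest of its group, the change in WT was 1.11. Cyp51 shares 166 exonic bases with Akap9 on the opposite strand.

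Nsdhl, a sterol dehydrogenase of the C4 demethylation, measured 15.6, 15.9 and 23.9 FPKM in WT_0d and 31.7, 33.2 and 26.1 in WT_5d. It measured 12.5, 14.4 and 12.4 in PPARγ/+_0d and 20.9, 20.8 and 17.5 in PPARγ/+_5d. It rose by 0.74 (adjusted p = 0.0244) and 0.58 (adjusted p = 0.00251). Msmo1, the methyl oxidase of that step, measured 8.39, 8.98 and 13.1 FPKM in WT_0d, 12.2, 12.8 and 15.1 in WT_5d, 6.94, 7.10 and 6.47 in PPARγ/+_0d and 9.89, 8.47 and 7.87 in PPARγ/+_5d. Hsd17b7, the ketone reductase of the step, measured 4.13, 4.55 and 5.35 in WT_0d, 6.95, 6.20 and 4.66 in WT_5d, 3.46, 3.59 and 3.75 in PPARγ/+_0d and 5.54, 5.00 and 5.00 in PPARγ/+_5d. Both rose in PPARγ/+ cells, Msmo1 by 0.34 (adjusted p = 0.0238) and Hsd17b7 by 0.51 (adjusted p = 0.00197). In WT cells their changes were 0.41 (adjusted p = 0.127) and 0.33 (adjusted p = 0.193), with overlapping libraries.

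Fdft1, the squalene synthase that commits farnesyl units to sterols, measured 26.9, 28.1 and 40.7 FPKM in WT_0d and 43.7, 44.95 and 50.8 in WT_5d. It measured 22.8, 23.5 and 20.5 in PPARγ/+_0d and 30.9, 31.0 and 28.0 in PPARγ/+_5d. It rose by 0.56 in WT (adjusted p = 0.0407) and by 0.43 in PPARγ/+ cells (adjusted p = 0.00299). Its exons share 774 bases with those of Ctsb on the opposite strand, which rose by 0.81 and 0.75. The library kit does not mark strand, so that reads from the shared bases cannot be assigned to either gene. Bases are shared with annotated genes on the opposite strand in further members too. They number 985 in Scap, 557 in Hmgcs1, 381 in Lss, 323 in Idi1 and 34 in Elovl6.

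Ebp, the sterol isomerase at chrX:8185329-8193512, was the member whose change differed between the cell types. It measured 19.7, 17.9 and 21.7 FPKM in WT_0d and 36.2, 33.8 and 35.8 in WT_5d. In PPARγ/+ cells it measured 19.8, 18.9 and 17.9 on 0d and 18.4, 21.2 and 17.5 on 5d. The WT_5d libraries stood alone above the 9 others, which overlapped. Ebp rose by 0.83 (SE 0.09) in WT cells (adjusted p = 0.00106), and in PPARγ/+ cells its change was 0.01 (SE 0.08) with a 95% confidence interval of −0.19 to 0.21 (adjusted p = 0.944). The difference between these changes, tested as an interaction on all 12 libraries, was −0.82 (SE 0.13, 95% confidence interval −1.10 to −0.55, adjusted p = 0.0168), and Ebp was the only member of 33 to pass, where 0.76% of all genes passed. It did not pass in 4 of 19 alternatives, and the adjusted p-value was 0.0525 without PPARγ/+_0d replicate 2, 0.0529 without PPARγ/+_5d replicate 1 and 0.0576 without PPARγ/+_5d replicate 3. It lay between 0.0134 and 0.0437 in the 15 alternatives that passed. The level of Ebp in WT_5d replicate 3, the library with the lowest sum of myotube markers in its group, lay between those of replicates 1 and 2. The rise in WT, the interaction and the difference on 5d given further on share the WT_5d libraries.

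At the end of the arm, Dhcr7, the reductase that makes cholesterol, measured 7.17, 6.93 and 10.3 FPKM in WT_0d and 17.7, 15.4 and 7.48 in WT_5d. WT_5d replicate 3 lay within the range of 0d, and the change of 0.66 (SE 0.34) did not pass (adjusted p = 0.176). Without that library Dhcr7 passed the test. In PPARγ/+ cells it measured 5.08, 4.87 and 4.16 on 0d and 6.68, 6.18 and 6.02 on 5d and rose by 0.42 (adjusted p = 0.0107). Sc5d, the desaturase before it, had changes of 0.01 and −0.31 (adjusted p = 0.944 and 0.0523).

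**Figure D3:**
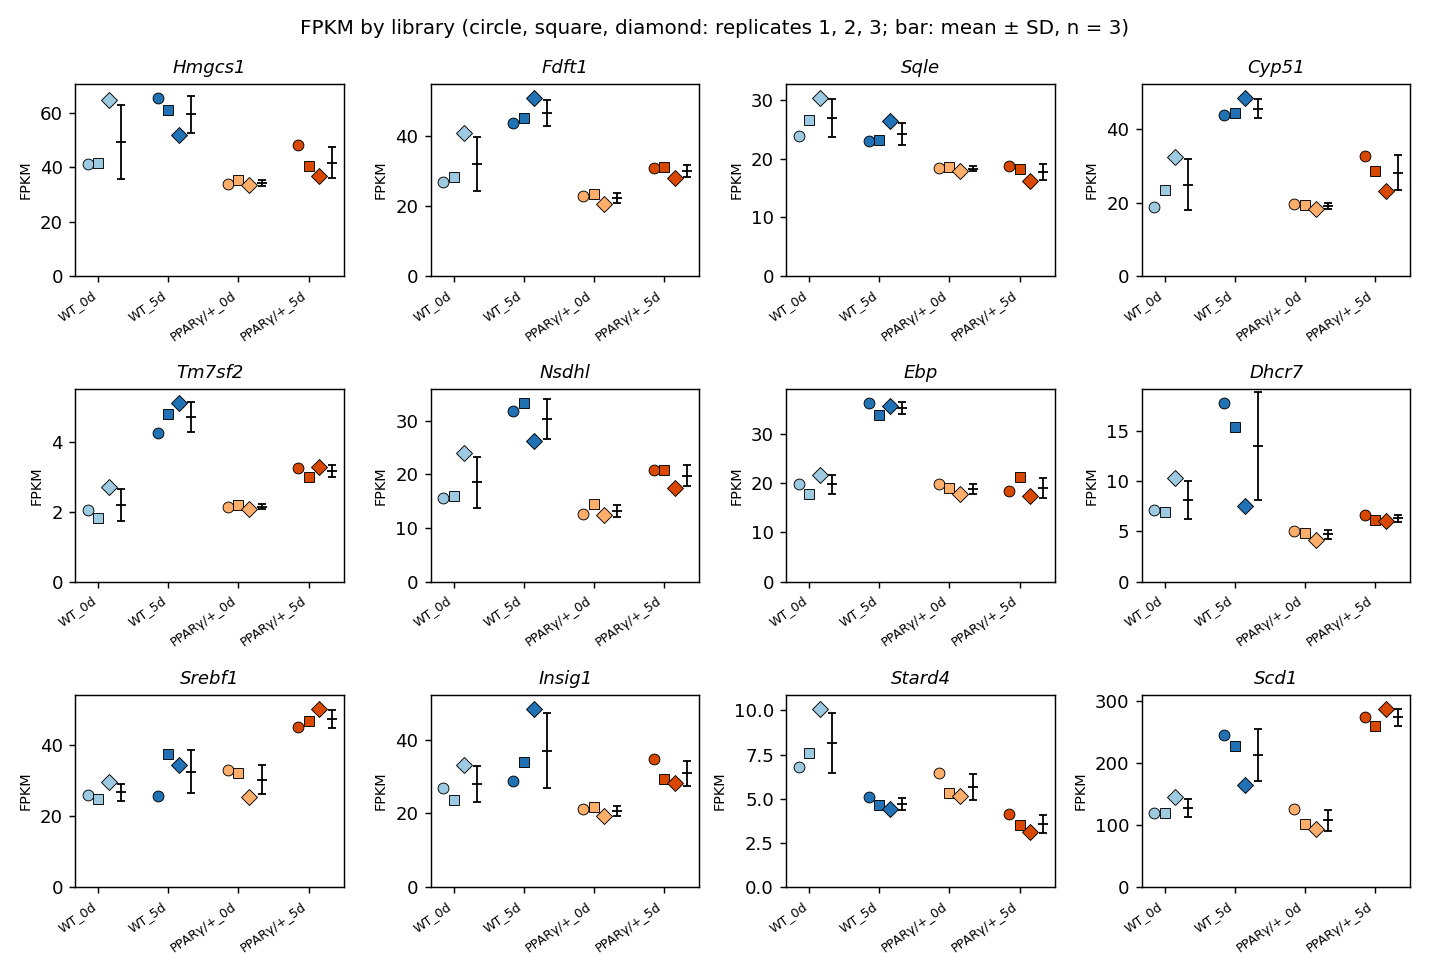
FPKM (y axis, from 0) of 12 members in each library of the 4 groups (x axis), with a circle, square and diamond for replicates 1, 2 and 3 and a bar for the mean and SD of 3 libraries. Ebp is raised only in the WT_5d libraries, Dhcr7 in WT_5d replicates 1 and 2, and Scd1 in the libraries of 5d of both cell types.

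None of the 7 mevalonate arm enzymes passed the test in either cell type (limma). At an unadjusted p-value of 0.05 or less 2 of them, Mvd and Fdps, were higher on 5d in WT cells, where 18.5% of all genes were higher and 28.3% lower. By that measure Hmgcs1, Mvd and Idi1 were higher and Pmvk lower in PPARγ/+ cells, where 21.7% of all genes were higher and 32.7% lower. With median-ratio scaling Mvd rose in WT and Hmgcs1, Idi1 and Mvd in PPARγ/+ cells. Hmgcs1, which makes HMG-CoA, the precursor of mevalonate, measured 41.3, 41.7 and 64.7 FPKM in WT_0d and 65.5, 60.9 and 51.9 in WT_5d, where WT_0d replicate 3 reached the range of 5d. In PPARγ/+ cells it measured 33.7, 35.5 and 33.6 on 0d and 48.0, 40.3 and 36.8 on 5d without overlap. Its log2 changes were 0.30 (SE 0.19, adjusted p = 0.28) and 0.27 (SE 0.10, adjusted p = 0.0578). The median change of the arm was 0.30 in WT and 0.27 in PPARγ/+ cells. Without WT_0d replicate 3 the median in WT was 0.51, and 4 of the 7 rose, Hmgcs1, Mvd, Idi1 and Fdps, where 9.01% of all genes rose. Mvd, the mevalonate diphosphate decarboxylase, measured 9.25, 7.68 and 13.2 FPKM in WT_0d, 17.9, 16.4 and 13.1 in WT_5d, 8.07, 9.56 and 7.88 in PPARγ/+_0d and 11.5, 9.56 and 9.87 in PPARγ/+_5d. Idi1, the isomerase of isopentenyl diphosphate, measured 3.21, 3.66 and 6.31 in WT_0d, 6.35, 5.65 and 5.01 in WT_5d, 3.11, 2.70 and 3.01 in PPARγ/+_0d and 4.83, 3.93 and 3.18 in PPARγ/+_5d. Fdps, the farnesyl diphosphate synthase, measured 1.23, 1.23 and 2.08 in WT_0d, 2.16, 2.49 and 2.07 in WT_5d, 1.05, 1.24 and 0.740 in PPARγ/+_0d and 1.40, 1.35 and 1.23 in PPARγ/+_5d. In all 3 WT_0d replicate 3 lay among the libraries of WT_5d. The exons of Fdps, at chr3:89093588-89101959, share 1124 bases with a further annotated gene on the same strand, and its low counts are uncertain for that reason. Acat2, Mvk and Pmvk, which make acetoacetyl-CoA and phosphorylate mevalonate, had changes below 0 in both cell types, from −0.32 to −0.05. In Acat2 the library apart was again WT_0d replicate 3, with 15.5, 15.8 and 25.8 FPKM in WT_0d and 15.8, 15.4 and 16.03 in WT_5d.

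Among the sensors and regulators, both Insig genes and Srebf1 rose in PPARγ/+ cells while Srebf2 and Scap did not pass. Srebf1, whose protein mainly drives fatty acid synthesis, measured 25.9, 24.8 and 29.5 FPKM in WT_0d and 25.8, 37.5 and 34.4 in WT_5d, which overlapped. It measured 33.1, 32.2 and 25.5 in PPARγ/+_0d and 45.1, 46.9 and 50.3 in PPARγ/+_5d, which did not. Srebf1 shares 109 exonic bases with Rai1 on the opposite strand. Its change was 0.27 (SE 0.15) in WT (adjusted p = 0.218), and it rose by 0.65 (SE 0.11) in PPARγ/+ cells (adjusted p = 0.00259). The difference between these changes was 0.39 (SE 0.20), with a 95% confidence interval of −0.05 to 0.82 (adjusted p = 0.48). Srebf2, whose protein mainly drives cholesterol synthesis, measured 67.1 ± 0.928 FPKM (SD, n = 3) in WT_0d, 66.4 ± 9.38 in WT_5d, 56.8 ± 3.35 in PPARγ/+_0d and 52.2 ± 1.29 in PPARγ/+_5d. Its changes were −0.02 and −0.12, and its mean was above that of Srebf1 in each group. Scap, the escort protein of both, measured 7.16 ± 0.631 in WT_0d, 6.75 ± 1.10 in WT_5d, 7.44 ± 0.668 in PPARγ/+_0d and 7.17 ± 0.707 in PPARγ/+_5d (SD, n = 3), with changes of −0.09 and −0.05 that did not pass.

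Insig1, a sterol-dependent brake on SREBP cleavage and itself an SREBP target, measured 27.0, 23.7 and 33.2 FPKM in WT_0d and 28.8, 33.9 and 48.3 in WT_5d, where the libraries overlapped. It measured 21.1, 21.7 and 19.2 in PPARγ/+_0d and 34.7, 29.4 and 28.3 in PPARγ/+_5d. It rose by 0.57 (SE 0.09) in PPARγ/+ cells (adjusted p = 0.00239), and its change in WT was 0.38 (SE 0.21, adjusted p = 0.209). Its paralog Insig2 measured 18.6, 17.5 and 18.5 in WT_0d, 22.5, 20.3 and 21.5 in WT_5d, 20.9, 21.3 and 20.7 in PPARγ/+_0d and 22.9, 23.6 and 24.7 in PPARγ/+_5d. It rose by 0.23 in WT (adjusted p = 0.0434) and by 0.18 in PPARγ/+ cells (adjusted p = 0.0234). The first of these did not pass in 8 of 14 alternatives and the second in 4 of 14. In PPARγ/+ cells the libraries of 5d lay above those of 0d for both genes.

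Stard4, a carrier that moves cholesterol between membranes, fell in both cell types. It measured 6.81, 7.59 and 10.1 FPKM in WT_0d and 5.10, 4.68 and 4.42 in WT_5d, and 6.48, 5.33 and 5.18 in PPARγ/+_0d and 4.13, 3.51 and 3.13 in PPARγ/+_5d. The libraries of 5d lay under those of 0d in each cell type. It fell by 0.76 on the log2 scale in WT (adjusted p = 0.0116) and by 0.65 in PPARγ/+ cells (adjusted p = 0.00693). Stard4 is known as an SREBP target too, and its direction was opposite to that of the sterol enzymes that rose.

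The 5 genes of fatty acid synthesis all had changes below 0 in WT cells, with a median of −0.32, and 2 of them, Acly and Elovl5, fell, where 23.0% of all genes fell. With median-ratio scaling the median was −0.19, all 5 were again below 0 and neither fell. Acly, which makes the cytosolic acetyl-CoA for both pathways, measured 43.6, 38.6 and 49.1 FPKM in WT_0d and 32.1, 31.1 and 35.4 in WT_5d. It measured 32.6, 32.5 and 30.2 in PPARγ/+_0d and 29.98, 30.2 and 30.3 in PPARγ/+_5d. Its change in WT was −0.41 (adjusted p = 0.0269), and in PPARγ/+ cells it was −0.07 (adjusted p = 0.258). Fasn, the fatty acid synthase, measured 38.75 ± 5.47 FPKM (SD, n = 3) in WT_0d, 30.9 ± 3.46 in WT_5d, 29.0 ± 2.44 in PPARγ/+_0d and 26.4 ± 0.491 in PPARγ/+_5d, with changes of −0.32 and −0.13 that did not pass. Acaca, the carboxylase that supplies malonyl-CoA, had changes of −0.21 and 0.08 (adjusted p = 0.222 and 0.565). Elovl5, an elongase of polyunsaturated fatty acids, fell in both cell types. It measured 23.6, 21.5 and 22.4 FPKM in WT_0d and 18.4, 18.0 and 19.4 in WT_5d, and 22.1, 27.8 and 25.0 in PPARγ/+_0d and 19.1, 17.9 and 18.2 in PPARγ/+_5d. Its changes were −0.28 (adjusted p = 0.0245) and −0.43 (adjusted p = 0.00634). Its paralog Elovl6, which lengthens palmitate, measured 13.0, 14.3 and 20.2 FPKM in WT_0d, 8.05, 10.4 and 15.6 in WT_5d, 16.6, 10.7 and 10.3 in PPARγ/+_0d and 16.2, 14.4 and 12.5 in PPARγ/+_5d. These libraries overlapped, and its changes were −0.50 and 0.22 (adjusted p = 0.194 and 0.395).

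Among the desaturases, Scd1 rose in both cell types while its neighbour and paralog Scd2, the most abundant member on 0d, did not pass the test. Scd1, which makes oleate and palmitoleate and lies at chr19:44394455-44407879, measured 119, 120.1 and 145 FPKM in WT_0d and 245, 228 and 165 in WT_5d. It measured 127, 102 and 94.3 in PPARγ/+_0d and 275, 259 and 287 in PPARγ/+_5d, so that the PPARγ/+_5d libraries were the highest of all. It rose by 0.72 (SE 0.17) in WT (adjusted p = 0.0196) and by 1.36 (SE 0.11), or 2.56-fold, in PPARγ/+ cells (adjusted p = 0.000179). The difference between these changes was 0.64 (SE 0.22) with a 95% confidence interval of 0.17 to 1.12 and an adjusted p-value of 0.252. In PPARγ/+ cells the sum of adipocyte markers also went up, from 10.6 to 17.3 FPKM on 0d to 44.8 to 142 on 5d. Of the 7 tested 6 rose, where 18.8% of all genes rose. In WT cells, where Scd1 rose too, 1 of the 7 rose, where 14.1% of all genes did. On 0d 3 of the 7 were higher in PPARγ/+ than in WT cells, where 2.2% of all genes were. Scd1 differed by −0.26 in that comparison (limma, adjusted p = 0.366). The part of these markers in the change of Scd1 was not tested. Scd2 measured 297, 272 and 385 in WT_0d, 356, 366 and 262 in WT_5d, 300.1, 261 and 207 in PPARγ/+_0d and 275, 255 and 223 in PPARγ/+_5d, with changes of 0.04 and −0.02. How the counting treated reads that the paralogs share was not stated. The mean of Scd2 was 251.1 ± 26.2 against 274 ± 14.0 for Scd1 in PPARγ/+_5d, and 256 ± 46.8 against 108 ± 16.9 in PPARγ/+_0d (SD, n = 3).

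Fads1 and Fads2 are the front-end desaturases of polyunsaturated fatty acids. Fads1 measured 45.3, 42.5 and 55.3 FPKM in WT_0d, 34.7, 44.4 and 55.6 in WT_5d, 44.6, 39.2 and 36.7 in PPARγ/+_0d and 52.8, 50.4 and 47.2 in PPARγ/+_5d. It rose by 0.32 in PPARγ/+ cells (adjusted p = 0.0188), and its change in WT was −0.10 with overlapping libraries. Fads2 measured 76.4, 74.2 and 104 in WT_0d, 69.2, 68.0 and 54.6 in WT_5d, 53.3, 50.8 and 39.4 in PPARγ/+_0d and 61.9, 59.5 and 56.1 in PPARγ/+_5d. Its changes of −0.40 in WT and 0.32 in PPARγ/+ cells pointed in opposite directions without overlap of the libraries in either cell type, and neither passed (adjusted p = 0.101 and 0.0614), although that in PPARγ/+ cells did with median-ratio scaling. The difference between them was 0.72 (SE 0.21, adjusted p = 0.18).

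**Figure D4:**
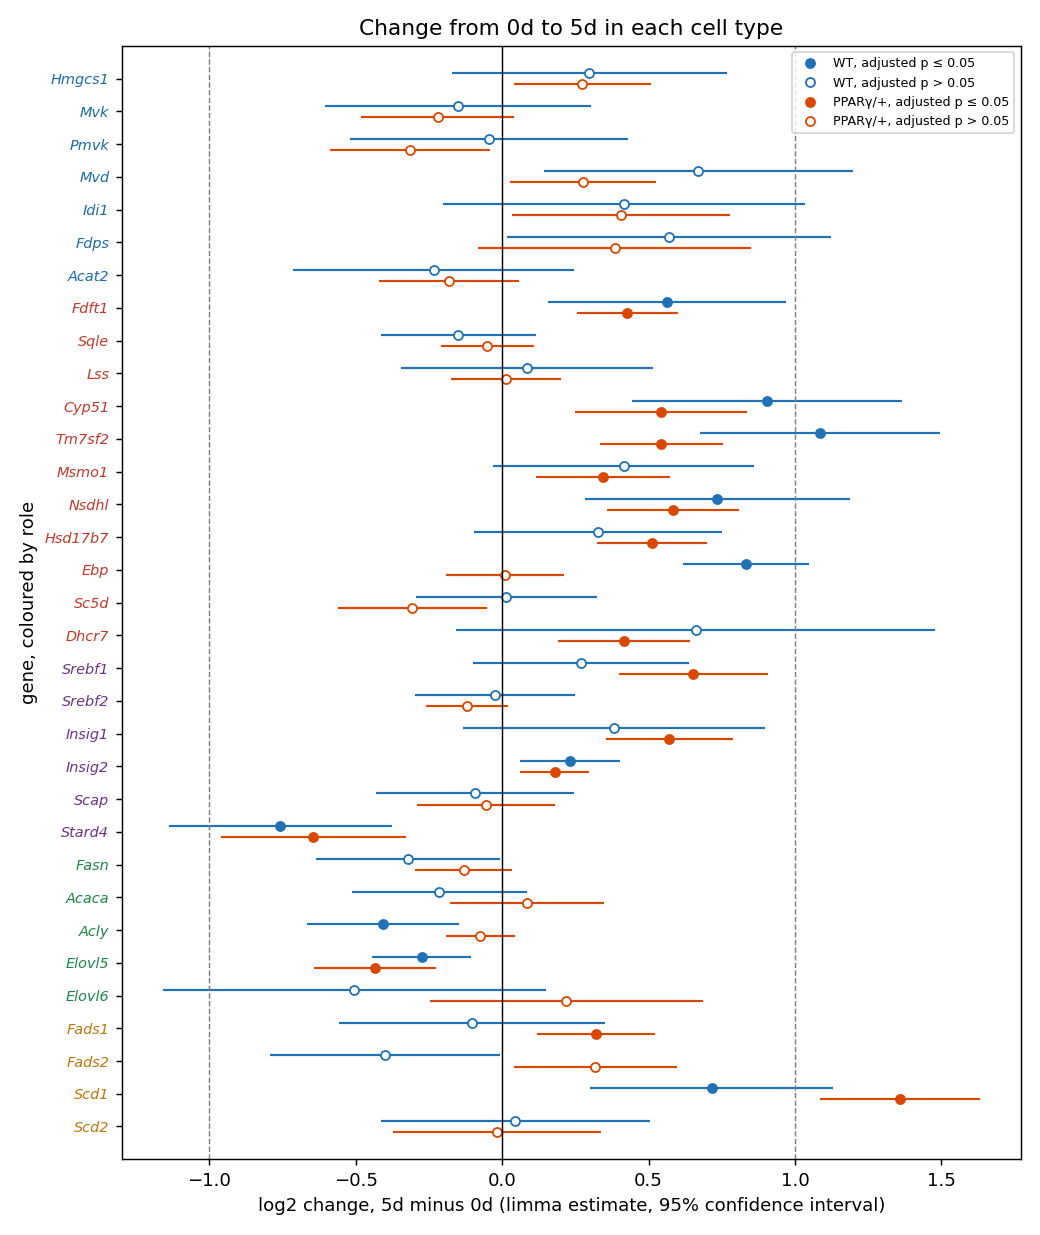
Log2 change from 0d to 5d (x axis, limma estimate with its 95% confidence interval) of each member (y axis, coloured by role) in WT cells (blue) and PPARγ/+ cells (orange), filled where the adjusted p-value was at most 0.05, with dashed lines at a 2-fold change. Filled points to the right gather in the sterol arm, Ebp is filled in WT alone, and Scd1 in PPARγ/+ cells lies at 1.36.

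PPARγ/+ cells were then compared with WT cells on each day, over all 12 libraries, and genes were called where the adjusted p-value did not exceed 0.05 and the difference reached 2-fold. No member was called on either day (limma), where 1.96% of all genes were called on 0d and 1.1% on 5d, and voom on recovered fragments called none either. Without the fold, 3 members were lower and none higher on 0d, where 3.37% of all genes were lower and 2.2% higher. On 5d again 3 were lower and none higher, where 0.738% were lower and 0.893% higher. At an unadjusted p-value of 0.05 or less, 18 members were lower and 1 higher on 0d, where 10.3% of all genes were lower and 11% higher. By the same measure 17 were lower and 3 higher on 5d, where 7.48% were lower and 7.87% higher. On 0d 28 of the 33 estimates were below 0, and 8311 of all 18023, with a median of −0.36 against 0.02 for all genes. On 5d 27 were below 0, and 8144 of all, with a median of −0.37 against 0.02 for all genes. The PPARγ/+ libraries lay entirely under the WT libraries in 17 members on 0d and in 20 on 5d, which held for 13.1% and 8.31% of all genes. They lay entirely above in 1 and 3 members, against 13.7% and 10.2% of all genes.

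On 0d the members that were lower in PPARγ/+ cells were Sqle, Fads2 and Acly, from 3 of the roles. Sqle, which carries out the first step that needs oxygen, differed by −0.55 (SE 0.09, adjusted p = 0.00805). It measured 23.9, 26.6 and 30.4 FPKM in WT_0d and 18.4, 18.6 and 17.9 in PPARγ/+_0d. Fads2 differed by −0.82 (SE 0.15, adjusted p = 0.0109) and Acly by −0.46 (SE 0.09, adjusted p = 0.0126), and the libraries of the groups did not overlap for any of the 3. All 11 estimates of the squalene and sterol arm lay below 0 on 0d, with a median of −0.36, and the groups did not overlap for 7 of them. WT_0d replicate 3 enters this comparison. Without it the median of the members was −0.22 in place of −0.36, that of the sterol arm −0.26, 25 of 33 estimates lay below 0, and Sqle, Fads2 and Acly were again the 3 that passed. Acly did not pass without PPARγ/+_0d replicate 3 (adjusted p = 0.0556).

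On 5d the members that were lower in PPARγ/+ cells were Fdft1, Sqle and Ebp, all of the squalene and sterol arm. Ebp differed by −0.89 (SE 0.09, adjusted p = 0.001), Sqle by −0.45 (SE 0.09, adjusted p = 0.0388) and Fdft1 by −0.63 (SE 0.14, adjusted p = 0.047). Sqle measured 23.0, 23.2 and 26.4 FPKM in WT_5d and 18.8, 18.2 and 16.2 in PPARγ/+_5d, without overlap. All 11 estimates of the arm lay below 0 with a median of −0.61, and in 10 the groups did not overlap, Hsd17b7 being the exception. All 7 estimates of the mevalonate arm lay below 0 as well, with a median of −0.51, and in 6 the groups did not overlap. Dhcr7 had the lowest estimate, −1.001 (SE 0.27), with an adjusted p-value of 0.0943. Above 0 stood Srebf1 with 0.56 (SE 0.14, adjusted p = 0.0767), Scd1 with 0.38 (SE 0.15, adjusted p = 0.27) and Insig2 with 0.15 (SE 0.06, adjusted p = 0.262), each without overlap, and Elovl6, Fads1 and Scap with overlap.

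These counts depended on single libraries. On 5d 3 members passed with all 12 libraries, 10 without WT_0d replicate 3 and 7 without WT_5d replicate 3. The 10 were Acat2, Cyp51, Ebp, Fdft1, Hmgcs1, Lss, Msmo1, Nsdhl, Sqle and Tm7sf2, all lower, of which 8 are of the squalene and sterol arm and 2 of the mevalonate arm, where 0.705% of all genes were then lower. WT_0d replicate 3 enters the test on 5d only through the estimate of spread that the 4 groups share, and the estimates of 5d were the same with and without it. Of the 7 without WT_5d replicate 3, Srebf1 was higher, and Dhcr7, Ebp, Fdft1, Mvd, Nsdhl and Sqle were lower, where 6.03% of all genes were then higher and 6.26% lower, against 0.893% and 0.738% with all libraries. The call of Ebp was kept in all 19 alternatives, that of Fdft1 was lost in 13 (adjusted p up to 0.19) and that of Sqle in 11 (adjusted p up to 0.177). On 5d 1 member passed without WT_0d replicate 2, without WT_5d replicate 2 and without any single PPARγ/+ library, where at most 0.638% of all genes were lower. On 0d 3 members passed with all libraries and 9 without WT_5d replicate 3, where 4.72% of all genes were then higher and 5.72% lower. On 0d 5 members passed without WT_0d replicate 1, where 2.61% of all genes were lower, and 5 without WT_5d replicate 1, where 4.03% were. The sum of the 7 myotube markers was 4531, 3523 and 1031 FPKM in WT_5d and 1122 to 1324 in PPARγ/+_5d, so that the groups overlapped. All 7 estimates lay below 0 on 5d and none passed, where 0.738% of all genes were lower. The groups did not overlap for 3 of the 7, where 8.31% of all genes lay entirely under. The part of these markers in the difference of the members was not tested.

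**Figure D5:**
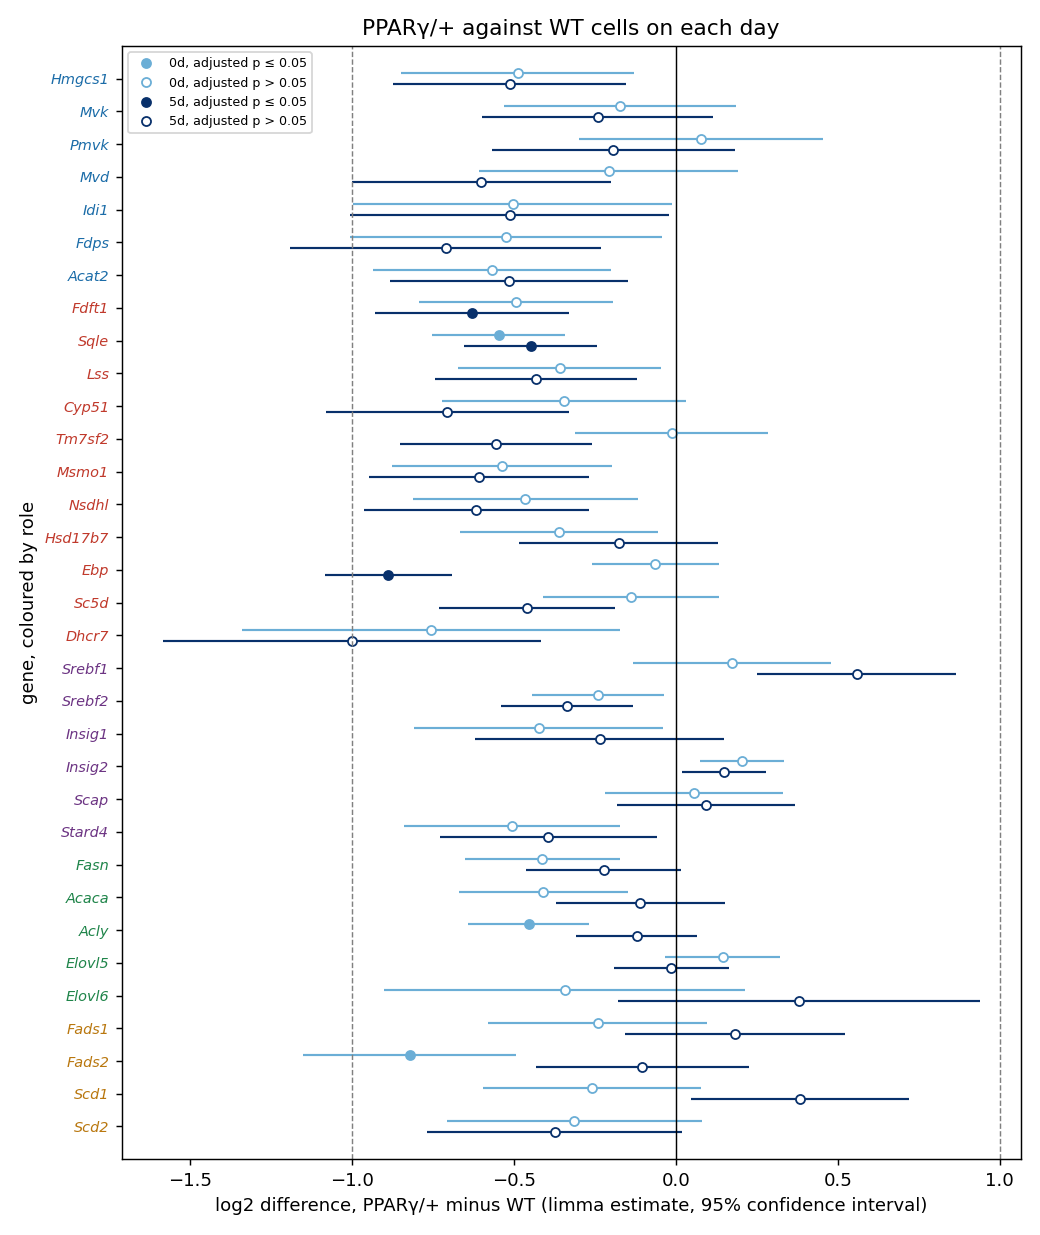
Log2 difference of PPARγ/+ minus WT cells (x axis, limma estimate with its 95% confidence interval) of each member (y axis, coloured by role) on 0d (light blue) and 5d (dark blue), filled where the adjusted p-value was at most 0.05, with dashed lines at a 2-fold difference. Most points lie left of 0 on both days, with Ebp, Sqle and Fdft1 filled on 5d and Sqle, Fads2 and Acly on 0d.

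Other genes of these pathways, from lists of names, did not all move with the members. Of 8 genes of the isoprenoid branch and other sterol enzymes none rose, 3 fell in WT and 4 in PPARγ/+ cells. Of all genes 14.1% rose and 23.0% fell in WT, and 18.8% and 28.8% in PPARγ/+ cells. Lbr, which doubles as a sterol C14 reductase and a nuclear envelope protein, went from 10.6 ± 0.544 to 4.06 ± 0.387 FPKM (SD, n = 3) in WT and from 8.88 ± 0.988 to 3.65 ± 0.263 in PPARγ/+ cells, changes of −1.36 and −1.26 (adjusted p = 0.000326 and 0.000153), opposite to Tm7sf2, which catalyses the same reaction. Markers of cycling myoblasts fell in the same comparisons, 7 of 7 in each cell type, where 23.0% and 28.8% of all genes fell. The part of these markers in the change of Lbr was not tested. Pdss1, which makes the side chain of ubiquinone, changed by −1.35 and −1.03 (adjusted p = 0.00189 and 0.00251).

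Of 8 genes of SREBP processing and INSIG turnover 1 rose in WT cells and 2 rose and 2 fell in PPARγ/+ cells, none by 2-fold. Of 23 further genes of fatty acid synthesis and modification 18 could be tested, of which 5 rose and 6 fell in WT, and 5 rose and 7 fell in PPARγ/+ cells. Beside these counts, 14.1% of all genes rose and 23.0% fell in WT, and 18.8% and 28.8% in PPARγ/+ cells. Fads6 rose by 1.67 and 1.97 and Scd4 by 1.09 and 1.30, both from means under 0.4 FPKM on 0d. Of 8 genes of sterol uptake and handling, Vldlr, a lipoprotein receptor, had the largest change of the other genes listed in WT cells. It measured 0.819, 1.02 and 0.498 FPKM in WT_0d and 3.09, 4.34 and 8.33 in WT_5d, 0.997, 1.11 and 1.25 in PPARγ/+_0d and 4.99, 4.10 and 2.89 in PPARγ/+_5d, changes of 2.53 and 1.72 (adjusted p = 0.00442 and 0.000701). Scarb1, a receptor for high density lipoprotein, fell in both cell types, with changes of −0.92 and −1.20 (adjusted p = 0.0012 and 0.000183).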

How the data were processed

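RNA of the 12 libraries was sequenced with a TruSeq kit that does not mark strand. Reads were cleaned with Trim Galore, mapped with STAR and counted on Ensembl genes of GRCm38 with HTSeq before the authors calculated FPKM, although the submitters' processing notes name mm9. The FPKM table deposited by the authors was used. A second deposited table held log2(FPKM + 1) of the same values, differing by at most 5.3e-14, and was not used further. Gene positions are those of GENCODE M21 (GRCm38), and promoters are RefSeq's.

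limma (version 3.58.1, R 4.3.3, empirical Bayes with a trend) was run on log2(FPKM + 0.1) of 18023 genes with at least 0.1 FPKM in at least 3 libraries. Fold changes are on that scale. 5d was compared with 0d on the 6 libraries of a cell type, and the cell types and the interaction over all 12, with Benjamini-Hochberg adjustment over all genes tested. The fit was tested on simulated data. Fragments were recovered as FPKM times exonic length times mapped fragments, whole within 0.01 for 21224 of 27138 genes with the annotated length and for 5593 with an inferred length. They were used for depth and for voom. Depth limits the precision of the least expressed members, and the number of libraries that of the others. The alternatives tried were 1 or 0.01 added to the FPKM, testing without a filter, a filter at 1 FPKM, median-ratio scaling, a replicate block, a fit of all 12 libraries, other call rules, voom and leaving out 1 library. Per-library values were given for called members and paralog pairs, with further members and other genes of the pathway named after their values were seen. The members and lists were chosen with earlier results of these data known. Python 3.11.15 was used with pandas 2.3.3, numpy 2.4.6 and matplotlib 3.10.9.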

Additional observations from a re-analysis of the deposited data

Results flagged for a closer look

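Between the cell types, the change of Ebp over the 5 days differed by −0.82 on the log2 scale (limma interaction, adjusted p = 0.0168), being 0.83 in WT and 0.01 in PPARγ/+ cells. All 3 WT_5d libraries lay above the other 9. The difference did not pass in 4 of 19 alternatives.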

How the results depend on the processing

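None of the changes and differences that passed the adjusted p-value turned its direction under any alternative. Among the other members some did. With median-ratio scaling 23 members lay above 0 in WT in place of 19, and 26 in PPARγ/+ cells in place of 21. Called at 2-fold, the 1 member in WT became 0 with 1 added to the FPKM, 2 with median-ratio scaling and 0 to 2 when 1 library was left out, and the adjusted p-value without the fold gave 10 in WT, 14 in PPARγ/+ cells, 3 on 0d and 3 on 5d. Leaving out 1 library gave 1 in PPARγ/+ cells, 0 on 0d and 0 to 1 on 5d. At the adjusted p-value alone, the 10 members of WT became 6 with no filter and 4 to 12 without 1 library, and the 14 of PPARγ/+ cells 11 to 16. The 3 of 0d became 5 with a filter at 1 FPKM, 5 with median-ratio scaling, 6 with voom, which was chosen after seeing the data, and 2 to 9 without 1 library. The 3 of 5d became 1 with no filter, 5 with median-ratio scaling, 5 with voom and 1 to 10 without 1 library. The causes were not tested. The 1 member of the interaction became 0 to 1 without 1 library. The deviations of same-numbered replicates were weakly correlated, with no value over 0.1, and the highest value of any pair of replicates was 0.102. Between 0d and 5d of PPARγ/+ cells each library correlated best with its own number (0.042, 0.083 and 0.034). That did not hold for every library in WT cells or between the cell types. With the replicate block the interaction had 0 members (Ebp, adjusted p = 0.0512) and 5d had 1, 8 members in WT and 15 in PPARγ/+ cells passed the adjusted p-value, and of the single changes 8 no longer passed and 23 did. Depth limits most the member with the fewest fragments, Fdps, which held 68 in 1 library. Its exons share 1124 bases with a further annotated gene on the same strand, so that its low counts are uncertain.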

Other observations

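Among further genes that handle fatty acids and sterols, Hacd1, an elongation cycle dehydratase known from muscle, rose with the myotube markers, from 7.16, 9.10 and 8.03 FPKM in WT_0d to 25.7, 22.8 and 11.3 in WT_5d (log2 change 1.21, limma adjusted p = 0.0238) and from 6.25, 6.23 and 6.72 in PPARγ/+_0d to 11.6, 12.1 and 10.9 in PPARγ/+_5d (log2 change 0.84, adjusted p = 0.000144). WT_5d replicate 3, with the lowest myotube sum of its group, had the lowest Hacd1 of its group as well. Acacb, the carboxylase isoform of muscle mitochondria, rose in PPARγ/+ cells from 0.472, 0.430 and 0.504 to 1.02, 1.004 and 1.06 FPKM (log2 change 0.99, adjusted p = 0.00154), and in WT its change of 0.77 did not pass (adjusted p = 0.0584). Tmem97, a sterol-regulated membrane protein, fell in both cell types, by changes of −0.89 and −0.93 (adjusted p = 0.00281 and 0.000179), and in WT_0d it too was highest in replicate 3, with 27.1, 28.9 and 37.3 FPKM in the 3 libraries. Lipa, the lysosomal lipase that frees cholesterol from esters, rose by 0.49 and 0.23 (adjusted p = 0.0427 and 0.0111). These genes were named after their values were seen.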
